A study of Homo sapiens with 24 samples.

Results

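A set of 10 genes of triglyceride synthesis, lipid droplet coating and fat breakdown were followed across Pirfenidone treated and control lung cancer cells, with DGAT2 as the gene of main interest. The genes were DGAT1, DGAT2, AGPAT2, PLIN2, PLIN3, PNPLA2, PNPLA3, LIPE, MGLL and HILPDA. They were found by the gene name that the array files give each probe, which yielded 14 probes for 10 genes out of 34127 probes and 25992 gene names. DGAT2 was chosen by its measured fall in A549 cells after 6 h on these same arrays, so that fall is given below as a description, with no p-value, and the counts of member probes that passed in that comparison leave DGAT2 out. DGAT1, PLIN2, PNPLA2 and MGLL each have 2 probes, named here the brighter and the dimmer one, and probes of 1 gene measure the same RNA and are not independent.

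Cells of the human lung adenocarcinoma lines A549 and H1975 were exposed to 0.75 mg/ml Pirfenidone, a drug used against lung fibrosis, or to the respective volume of PBS, for 6 h or 24 h. The 8 groups were A549 with PBS and with Pirfenidone at 6 h, the same pair at 24 h, and the 4 corresponding groups of H1975. Each group held 3 samples, and every sample was hybridized to its own one-color Agilent array, 24 in all. Whether the 3 samples came from separate cultures is not stated in the labels, and p-values then measure only the spread between these samples. Each line stands for 1 tumor, so a difference between A549 and H1975 is a difference between these 2 lines.

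Cells store surplus fatty acids as triglyceride. Acyl chains are added one after another to a glycerol phosphate backbone by acyltransferases such as AGPAT2, and the last chain is added by DGAT1 or DGAT2, enzymes of unrelated sequence that catalyze the same reaction. The product is packed into lipid droplets, whose surface is coated by perilipins such as PLIN2 and PLIN3. Fat is released again by lipases acting in turn: PNPLA2 (adipose triglyceride lipase) removes the first chain, LIPE (hormone-sensitive lipase) the next and MGLL (monoglyceride lipase) the last, while HILPDA, a small hypoxia-inducible droplet protein, inhibits PNPLA2.

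The sequences shown are those of the perilipin promoters, since both coat genes differed between the lines, and of 2 probes that measured the members. Promoters are the 250 bases before the transcription start in RefSeq, assembly GRCh38.p14, and capitals mark the motifs found by a search of both strands. In the PLIN2 promoter (chr9:19127493-19127742, minus strand) the capitals are an E-box (CACGTG) at positions -69 to -64 and the hypoxia response core ACGTG at -120 to -116, and the core also lies inside the E-box on each strand. In the PLIN3 promoter (chr19:4867668-4867917, minus strand) they are a CCAAT box, read on the opposite strand, at -77 to -73. Positions count back from the transcription start, with -1 as the base just before it.
PLIN2 promoter: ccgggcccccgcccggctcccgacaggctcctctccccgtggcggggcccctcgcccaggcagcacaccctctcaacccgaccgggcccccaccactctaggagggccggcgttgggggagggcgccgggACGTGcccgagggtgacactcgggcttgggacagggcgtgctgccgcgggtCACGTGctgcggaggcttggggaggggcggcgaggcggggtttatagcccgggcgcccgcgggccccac
PLIN3 promoter: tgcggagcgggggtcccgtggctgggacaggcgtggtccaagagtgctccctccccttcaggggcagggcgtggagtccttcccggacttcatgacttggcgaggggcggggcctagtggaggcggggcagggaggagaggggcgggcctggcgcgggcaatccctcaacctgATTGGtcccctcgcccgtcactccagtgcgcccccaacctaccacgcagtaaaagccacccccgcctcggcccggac
PLIN2 brighter probe: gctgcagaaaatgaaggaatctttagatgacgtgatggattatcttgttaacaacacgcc
MGLL brighter probe: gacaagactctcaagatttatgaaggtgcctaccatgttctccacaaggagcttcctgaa

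The base composition was 78% G and C in the PLIN2 promoter and 70.8% in that of PLIN3. RefSeq promoters were matched for 5 of the 10 members, PLIN2, PLIN3, AGPAT2, PNPLA2 and LIPE, and LIPE has 2, which gives 6 windows. Over all 35116 promoters of the same length, an E-box was found in 6.34%, the hypoxia response core in 18.5% and the CCAAT box in 32%. Among the 6 windows the E-box and the core were found in that of PLIN2 and the CCAAT box in those of PLIN3 and LIPE. The sterol regulatory element TCACNCCAC, present in 0.883% of all promoters, was found in the PNPLA2 window at -153 to -145. The cAMP response element TGACGTCA (1.65% of all promoters) and the C/EBP-ATF element TGATGCAA (0.772%) were found in 0 of the 6. These matches describe letters in the window and no binding was measured.

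Probe positions are those of the array files, on build hg19, and no gene models of that build were used. The DGAT2 probe lies at chr11:75511843-75511902 on the plus strand. The PLIN2 brighter probe lies at chr9:19116370-19116429 and the dimmer one at chr9:19123403-19123462, both on the minus strand, and the array files assign them to different transcripts. The MGLL brighter probe, on the minus strand, is 60 bases long but covers chr3:127411122-127413832, a span of 2711 bases, so it crosses at least 1 spliced junction. Other probes lie at chr9:139567619-139567678 (AGPAT2), chr19:4839115-4839174 (PLIN3), chr11:824764-824823 and chr11:824896-824955 (PNPLA2), chr22:44342759-44342818 (PNPLA3), chr19:42905666-42905725 (LIPE), chr3:127407911-127407970 (MGLL, dimmer) and chr7:128098381-128098440 (HILPDA). Both DGAT1 probes lie on chromosome 8.

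Signals are given as log2 of the processed intensity minus the 75th percentile of the same array, so 0 is the brightness that 75% of spots stay below, and a step of 1 is a 2-fold difference. Between 62.7% and 69.5% of probes were well above background per array and 0 were saturated. All 14 member probes were well above background on all 24 arrays. Epithelial markers (EPCAM, CDH1, KRT7, KRT8, KRT18, KRT19) were above background on every array of both lines, and none of the 4 adipocyte markers (ADIPOQ, LEP, PLIN1, CIDEA) was above it on all 12 arrays of either line. Some markers of other cell types were. In A549 these were 3 of 4 leukocyte markers (PTPRC, CD68, CD14) and 1 of 3 endothelial ones (CDH5), with 0 of 3 fibroblast markers. In H1975 they were 2 leukocyte markers (CD68, CD14), all 3 endothelial ones (PECAM1, CDH5, VWF) and 2 of the fibroblast ones (COL1A2, PDGFRB). PTPRC (mean -6.13) and CDH5 (-6.03) in A549 and VWF (-6.44) in H1975 were near the lowest signals called well above background. CD68, at -0.61 in A549 and 1.47 in H1975, was not. Neither were CD14, at -0.34 in A549 and -0.57 in H1975, and COL1A2 (1.52), PDGFRB (-3.93) and PECAM1 (-4.62) in H1975. The part of these marker differences in the results was not tested. The arrays fall into 4 date sets, each a date in the array file names whose kind is not stated, and onto 7 slides. Within every drug comparison the arrays pair by date set, 1 PBS and 1 Pirfenidone array in each of 3 sets. In A549 at 24 h the replicate 3 pair ran against the others. Over probes well above background on all 24 arrays its drug difference correlated with theirs at -0.65 and -0.70. The other pairs of that comparison correlated at 0.53 and those of the other comparisons at 0.50 to 0.84. Member values that rest on the replicate 3 pair were refitted without it. The refitted value is given too for many of these. A 24 h value involving A549 that stands alone can also shift without the pair. The AGPAT2 difference between the lines, for example, went from -0.92 to -0.80.

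DGAT2 catalyzes the final step of triglyceride synthesis at the endoplasmic reticulum and the droplet surface. In A549 cells with PBS at 6 h its signals were -3.80, -3.23 and -3.39, and with Pirfenidone -5.79, -5.45 and -6.30. All 3 treated arrays lay below all 3 controls. The group means were -3.47 ± 0.30 and -5.85 ± 0.43 (SD, n = 3, as for all SDs below), a difference of -2.37 or 5.18-fold, which was the value that chose the gene. Within date sets the difference was -2.91, -1.99 and -2.23. Among the 14 probes with decreases past the limits set out below, DGAT2 had the largest, the smallest being -1.02. Since this fall chose the gene, that place is a description. Over fits that left out 1 array the difference lay between -2.57 and -2.15. With normexp background correction the DGAT2 difference was -1.46.

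The treated A549 signals at 6 h were near the lower end of what the arrays measure. The lowest normalized signal of any probe called well above background was -6.70, -6.81 and -7.74 on those 3 arrays, against DGAT2 at -5.79, -5.45 and -6.30. In the other 21 arrays the distance was wider, with DGAT2 between -4.50 and -1.91. The RNA came from whole cultures, in which fewer cells with a transcript and less of it per cell cannot be told apart.

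**Figure D1:**
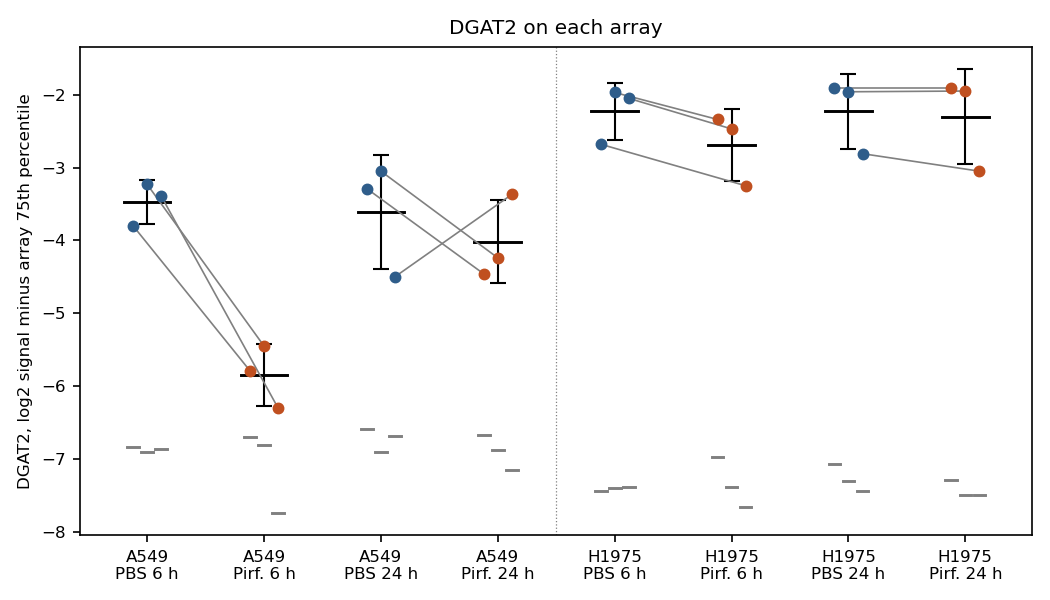
DGAT2 signal (log2 intensity relative to the array's 75th percentile, vertical axis) on each of the 24 arrays by cell line, time and treatment. Blue points are PBS arrays and orange points Pirfenidone arrays, replicates 1 to 3 from left to right; black bars are the mean ± SD (n = 3); grey lines join arrays of 1 date set; grey dashes mark the lowest signal of any probe well above background on that array. The 3 A549 Pirfenidone arrays at 6 h lie at -5.79, -5.45 and -6.30, below every other array.

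At 24 h DGAT2 in A549 read -3.29, -3.05 and -4.50 with PBS and -4.46, -4.24 and -3.37 with Pirfenidone. The groups overlapped, with replicate 3 lowest among the controls and highest among the treated arrays. The difference was -0.41 (SE 0.41, 95% interval -1.27 to 0.45, adjusted p = 1 in limma). The within-set differences were -1.17 and -1.19 for replicates 1 and 2 and 1.13 for replicate 3. Without the replicate 3 pair the difference was -1.18 (95% interval -2.06 to -0.30, adjusted p = 0.4).

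In H1975 at 6 h the DGAT2 signals were -2.68, -1.97 and -2.05 with PBS and -2.34, -2.47 and -3.25 with Pirfenidone. These groups overlapped, and the difference of -0.45 (95% interval -1.31 to 0.41, adjusted p = 0.824) did not pass, although it was below 0 in all 3 date sets (-0.56, -0.37 and -0.43). At 24 h the signals were -1.91, -1.96 and -2.81 with PBS and -1.91, -1.95 and -3.05 with Pirfenidone. The 2 groups nearly coincided. The difference was -0.07 (95% interval -0.94 to 0.79, adjusted p = 0.952). In each H1975 group the lowest DGAT2 array belonged to the same date set, and the part of that set in the spread was not tested.

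The response of DGAT2 in H1975 minus that in A549 was 1.92 at 6 h, and the A549 response at 24 h minus that at 6 h was 1.96. Both contain the contrast that chose the gene and carry no test. Without the A549 replicate 3 pair at 24 h the second was 1.19. The responses of the 2 lines at 24 h differed by 0.34 (95% interval -0.88 to 1.55, adjusted p = 0.899), and without that pair the interval was -0.03 to 2.24 (adjusted p = 0.765). Those of H1975 at 24 h and 6 h differed by 0.38 (adjusted p = 1).

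Across the 8 groups the DGAT2 means ranked from the 4 H1975 groups, -2.23 with PBS at both times, -2.30 with Pirfenidone at 24 h and -2.69 at 6 h, through A549 with PBS at 6 h (-3.47) and 24 h (-3.61) and with Pirfenidone at 24 h (-4.02), to A549 with Pirfenidone at 6 h (-5.85). Neighbors in this order overlapped in their arrays except for the last pair. Without the replicate 3 pair the A549 means at 24 h were -3.17 with PBS, now above that at 6 h, and -4.35 with Pirfenidone. In PBS at 6 h H1975 was higher than A549 by 1.24 (2.36-fold, SE 0.41, 95% interval 0.38 to 2.10, adjusted p = 0.0143), a comparison that uses the same A549 control arrays as the choice of the gene. At 24 h it was higher by 1.39 (2.61-fold, 95% interval 0.52 to 2.25, adjusted p = 0.00703). Within the 2 date sets that hold both lines the early differences were 0.71 and 1.26 and the late ones 1.69 and 1.14. Without the A549 replicate 3 pair the 24 h value was 0.94 (adjusted p = 0.0438), below the 2-fold limit. The 6 h call was lost without A549 PBS replicate 1 (1.08, adjusted p = 0.0582) or H1975 PBS replicate 2 (1.11, adjusted p = 0.0533), and the 24 h call without A549 PBS replicate 3 alone (0.94, adjusted p = 0.0581).

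Under Pirfenidone the 9 members other than DGAT2 passed in 0 of the 4 comparisons, and DGAT2 in 0 of the 3 that its choice did not use. Passing required both a change of at least 2-fold and an adjusted p (Benjamini-Hochberg, over all 23827 tested probes) of 0.05 or less. In A549 at 6 h 0 of the 13 probes other than DGAT2 passed, where 0.176% of all tested probes passed. After 24 h in A549 0 of 14 passed (0.0126% of all). For H1975 the count was 0 after 6 h (0.491% of all) and 0 after 24 h (1.89%). For the 13 probes other than DGAT2, the number with an unadjusted p under 0.05 in limma was 0, 0, 0 and 3 in these 4 comparisons. None of the probes counted in each changed by 2-fold, so no test with the same fold limit could call one. This holds for the methods' t-test, here paired by date set and not moderated. Arrays of treated and control cells did not overlap for 0 of the 13 probes in A549 at 6 h and for 0, 2 and 4 of the 14 in the others, beside 15.3%, 1.82%, 17.8% and 31.9% of all probes. In the same order and over the same probes the median change was -0.06, 0.01, -0.08 and 0.04, against -0.01, -0.02, 0.05 and 0.02 over all tested probes. Apart from DGAT2 the changes of A549 members lay between -0.32 and 0.28 at the early time and between -0.09 and 0.13 at the late one. Without the replicate 3 pair the late range was -0.53 to 0.41, from LIPE to the PLIN2 brighter probe, 2 of the 13 probes had an unadjusted p under 0.05, and 0 passed (smallest adjusted p = 0.416). Those of H1975 lay between -0.33 and 0.30 at the early time and spread from -0.94 to 0.46 at the late one.

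**Figure D2:**
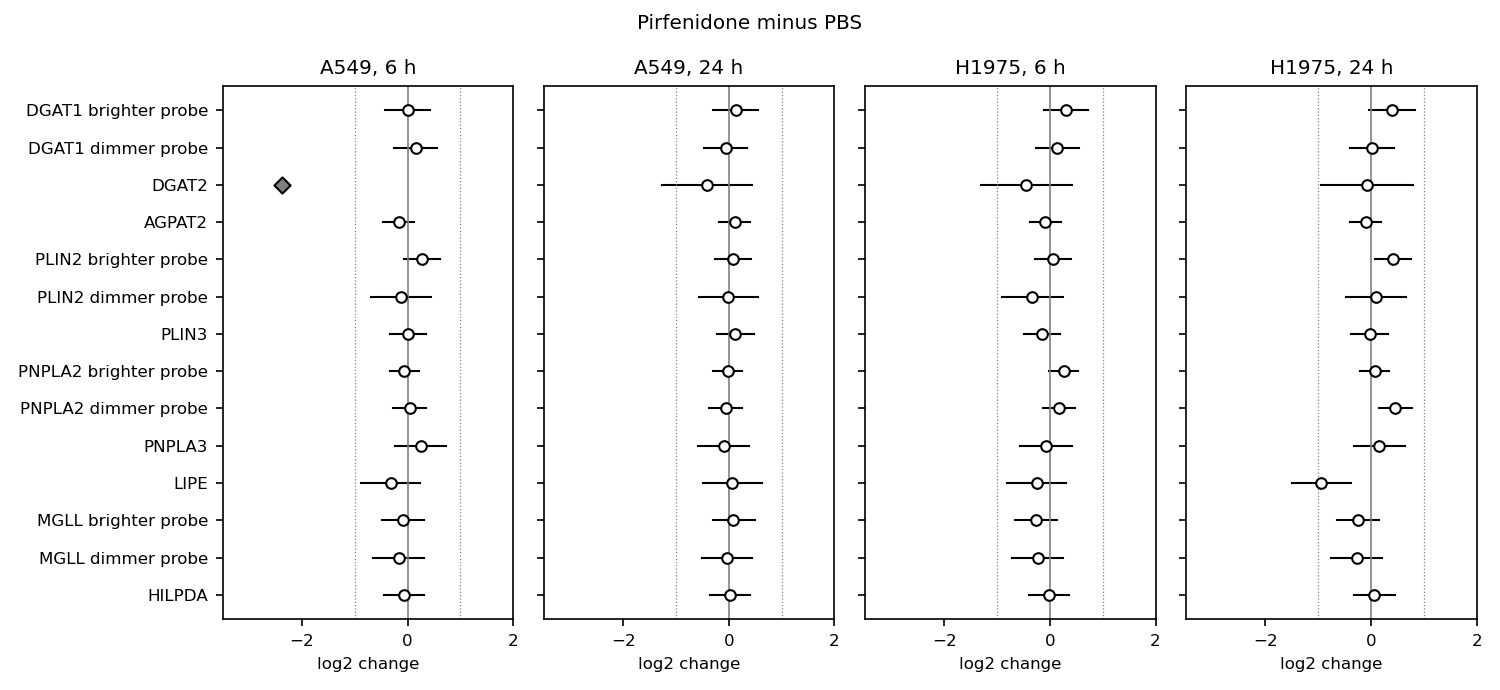
Change of each member probe under Pirfenidone (log2 Pirfenidone minus PBS, horizontal axis) in the 2 lines at 6 h and 24 h. Points are limma estimates with 95% intervals as lines, filled points passed, dotted lines mark -1 and 1, and the grey diamond without an interval is DGAT2 in A549 at 6 h, which chose the gene. The LIPE point in H1975 at 24 h, at -0.94, is the only other one near the dotted lines.

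LIPE, which splits diglyceride and also cholesterol esters, had the largest change among the other members. In H1975 at 24 h it read -0.14, -0.10 and 0.18 with PBS and -0.78, -0.81 and -1.28 with Pirfenidone. The groups did not overlap. The change was -0.94 (1.91-fold, SE 0.27, 95% interval -1.50 to -0.38), with an adjusted p of 0.0439 in limma, so it met the p limit, which 6.26% of all tested probes met, and not the fold limit. It was -0.64, -0.71 and -1.46 within date sets. That p did not survive leaving out any 1 of the 6 arrays (change -1.03 to -0.77, adjusted p 0.0627 to 0.213), nor normexp correction (adjusted p = 0.081). With the date set as a block it was 0.0302.

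In the other 3 drug comparisons LIPE met neither limit. In H1975 at 6 h it read 0.03, -0.12 and -0.07 with PBS and -0.27, -0.32 and -0.33 with Pirfenidone, also without overlap, a change of -0.25 (adjusted p = 0.867). In A549 at 6 h it read 0.74, 0.53 and 0.67 against 0.54, 0.12 and 0.33 (change -0.32, adjusted p = 1). In A549 at 24 h it read 0.84, 0.73 and -0.51 with PBS against 0.58, -0.07 and 0.76 with Pirfenidone, the replicate 3 pair again opposite to the others (1.28 against -0.26 and -0.80). The LIPE response in H1975 minus that in A549 at 24 h was -1.01 (95% interval -1.80 to -0.22, unadjusted p = 0.0155, adjusted p = 0.265) and did not pass. Without the replicate 3 pair it was -0.41 (95% interval -0.95 to 0.14, adjusted p = 0.875), and the A549 change was -0.53 (adjusted p = 0.441).

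PNPLA2, which starts triglyceride breakdown, gave different values on its 2 probes. The dimmer probe in H1975 at 24 h read -0.83, -0.82 and -1.12 with PBS and -0.31, -0.50 and -0.57 with Pirfenidone, without overlap. The difference was 0.46 (95% interval 0.16 to 0.77, adjusted p = 0.0649) and ran from 0.32 to 0.55 within date sets. With the date set as a block its adjusted p was 0.0435, still below the fold limit. On the brighter PNPLA2 probe, which lies just upstream on the same strand, it was 0.07 (adjusted p = 0.848), and the groups overlapped. The difference between lines in the PNPLA2 response at 24 h was 0.52 on the dimmer probe (adjusted p = 0.294) and 0.09 on the brighter one (adjusted p = 0.926), the latter -0.03 without the A549 replicate 3 pair (adjusted p = 0.999).

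The droplet coat gene PLIN2, which tracks the amount of stored fat in many cell types, read 0.74, 0.84 and 0.73 on its brighter probe in H1975 with PBS at 24 h. With Pirfenidone it read 1.16, 1.15 and 1.25, above all 3 controls. The difference of 0.42 (95% interval 0.08 to 0.75, adjusted p = 0.133) did not pass, and the dimmer probe gave 0.10 (adjusted p = 0.903) with overlapping groups. The DGAT1 brighter probe had a difference of 0.40 in the same comparison (adjusted p = 0.265), with arrays at -0.89, -0.93 and -1.30 against -0.48, -0.58 and -0.86. Within date sets it was 0.44, 0.41 and 0.35, and that of PLIN2 0.52, 0.42 and 0.30. With the date set as a block the adjusted p was 0.116 for DGAT1 and 0.103 for PLIN2. On the dimmer DGAT1 probe it was 0.02.

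The remaining members had these changes over both lines and both times. AGPAT2 changes lay between -0.17 and 0.12, PLIN3 changes between -0.14 and 0.12, HILPDA changes between -0.07 and 0.06 and PNPLA3 changes between -0.09 and 0.25. MGLL changes lay between -0.27 and 0.09 on both probes. The 95% intervals of AGPAT2, PLIN3, HILPDA, PNPLA3 and MGLL in the 4 drug comparisons all lay between -0.75 and 0.73, so a 2-fold change was outside each of them. Without the A549 replicate 3 pair the A549 changes at 24 h were 0.32 for AGPAT2, 0.34 and 0.18 for the MGLL probes, -0.21 for PNPLA3 and -0.21 for HILPDA, with intervals between -0.83 and 0.74.

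The members differed more between the lines than under the drug, as did the tested probes in general. Of all tested probes 0.0126% to 1.89% passed in the drug comparisons. In PBS at 6 h 7 of the 14 probes passed, for 6 genes, with 4 higher in H1975 and 3 lower, while 32.4% of all tested probes passed (15.3% with a lower signal in H1975). At 24 h 6 probes passed, for 4 genes, with 4 higher and 2 lower, while 32.9% of all did (14.9% with a lower one). Leaving out H1975 PBS replicate 2 gave 4 at 6 h, the lowest of the counts of 4 to 8 without 1 array, and the counts at 24 h were 5 or 6. By adjusted p alone 12 probes were called at 6 h and 11 at 24 h, where 58.6% and 59.2% of all probes were. The lines did not overlap for 12 probes at 6 h and 10 at 24 h, beside 66.3% and 63.7% of all probes. The median difference of the 14 probes was -0.20 against 0.06 over all probes at 6 h and -0.24 against 0.08 at 24 h. Replicates of both lines share 2 of the date sets, and slides hold 1 line each, so slide and line cannot be told apart.

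**Figure D3:**
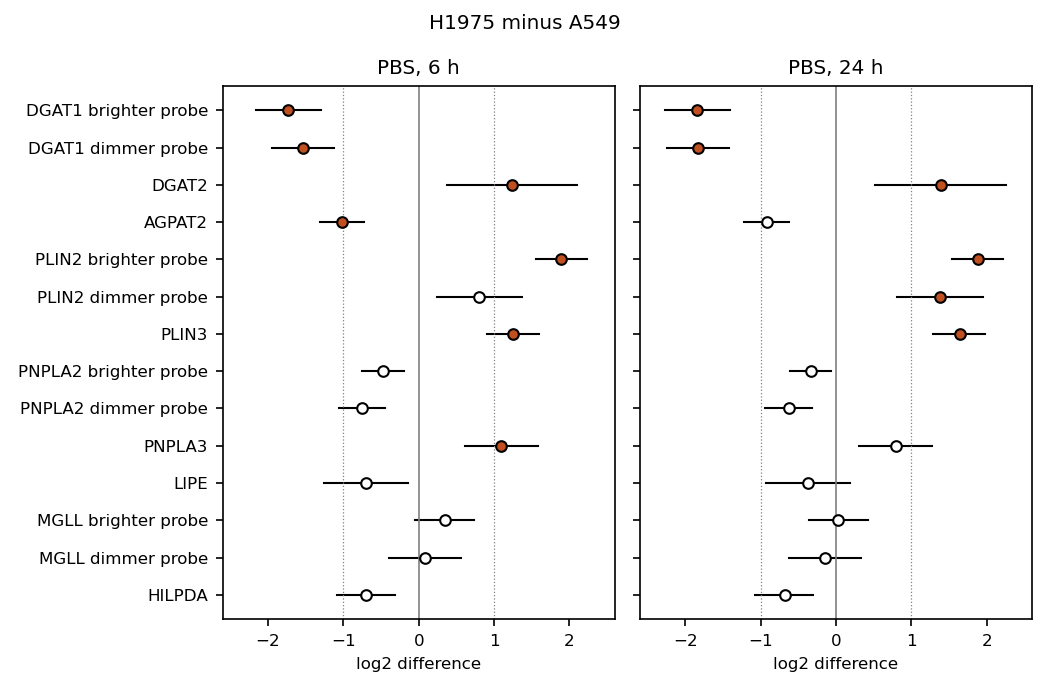
Difference between the lines for each member probe in PBS (log2 H1975 minus A549, horizontal axis) at 6 h and 24 h. Points are limma estimates with 95% intervals as lines, filled points passed and dotted lines mark -1 and 1. PLIN2, PLIN3 and DGAT2 lie to the right and both DGAT1 probes, at -1.54 to -1.84, lie to the left.

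DGAT1, the other enzyme of the final step, was lower in H1975, opposite to DGAT2. With PBS at 6 h the brighter probe read 0.65, 0.65 and 0.63 in A549 and -1.53, -0.83 and -0.90 in H1975. At 24 h it read 0.66, 0.73 and 1.02 against -0.89, -0.93 and -1.30. The differences were -1.73 (3.32-fold, SE 0.20, adjusted p = 5.71e-07) and -1.84 (3.58-fold, adjusted p = 2.46e-07). The dimmer probe gave -1.54 and -1.83, and within the shared date sets the brighter probe gave -2.16 and -1.48, then -2.32 and -1.62. Both probes of the gene ran the same way in every one of these values.

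AGPAT2, which makes phosphatidic acid earlier in the pathway, read 4.86, 5.04 and 5.26 in A549 and 4.20, 3.99 and 3.92 in H1975 with PBS at 6 h. The difference was -1.02 (2.03-fold, adjusted p = 3.92e-06) and passed. At 24 h it was -0.92 (1.90-fold, adjusted p = 1.27e-05), short of the fold limit, so the 2 times lie on either side of the limit with similar values. Within shared date sets the differences were -1.05 and -1.06, then -1.06 and -0.88. The 6 h call was lost without A549 PBS replicate 3 (-0.92) or H1975 PBS replicate 2 (-0.99) or 3 (-0.96).

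Both droplet coat genes were higher in H1975. The PLIN2 brighter probe read -1.41, -1.28 and -1.37 in A549 and 0.69, 0.51 and 0.42 in H1975 with PBS at 6 h, and -1.17, -1.36 and -0.78 against 0.74, 0.84 and 0.73 at 24 h. The differences were 1.89 (3.71-fold, SE 0.16, adjusted p = 6.80e-09) and 1.88 (3.67-fold, adjusted p = 7.67e-09). The shared date sets gave 2.06 and 1.79 at the early time and 1.51 and 2.11 at the late one. The dimmer probe gave 0.80 at 6 h (adjusted p = 0.0159), below the fold limit, and 1.38 at 24 h (adjusted p = 2.29e-04), which passed. Without H1975 PBS replicate 1 the 6 h value was 1.01 and passed (adjusted p = 0.00691). With normexp the 24 h value was 0.71 (adjusted p = 0.165).

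PLIN3, a perilipin that moves from the cytosol to new droplets, read 0.02, 0.23 and 0.22 in A549 and 1.15, 1.62 and 1.47 in H1975 at 6 h. At 24 h it read 0.04, 0.03 and -0.13 against 1.72, 1.81 and 1.33. H1975 was higher by 1.25 (2.39-fold, SE 0.16, adjusted p = 2.15e-06) and 1.64 (3.11-fold, adjusted p = 6.25e-08). The shared date sets gave 0.93 and 1.39, then 1.46 and 1.69. The promoters of these 2 genes are those shown at the outset, and no promoter activity was measured here.

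**Figure D4:**
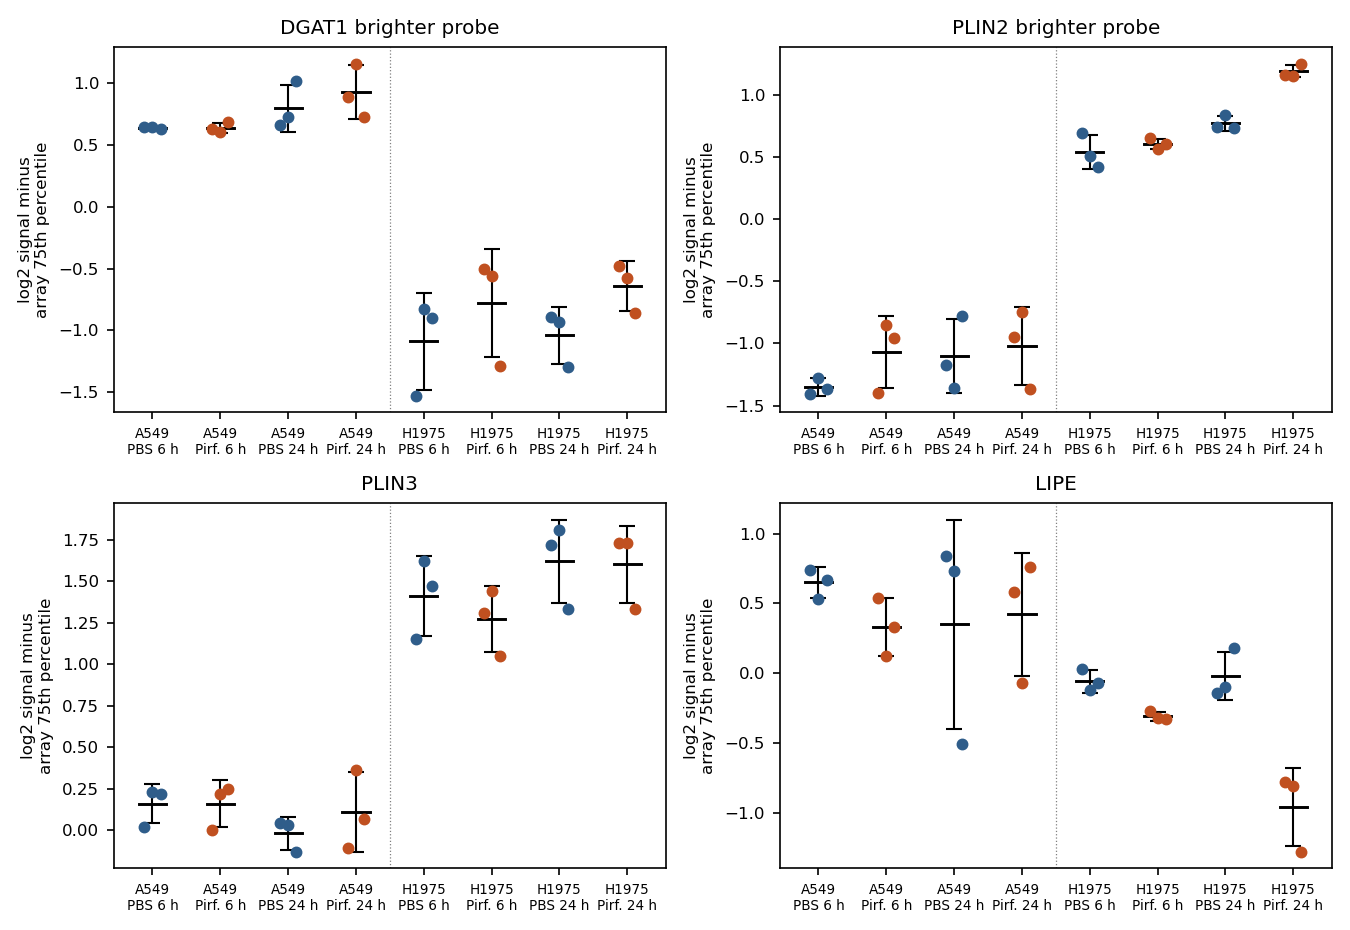
Signals of DGAT1 (brighter probe), PLIN2 (brighter probe), PLIN3 and LIPE on each array (log2 intensity relative to the array's 75th percentile, vertical axes). Blue points are PBS and orange points Pirfenidone arrays, replicates 1 to 3 from left to right, with black bars for the mean ± SD (n = 3). DGAT1 is lower and PLIN2 and PLIN3 are higher in H1975, and LIPE in H1975 at 24 h lies at -0.78, -0.81 and -1.28 with Pirfenidone.

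Among the lipases PNPLA3, a relative of PNPLA2 known for a coding variant tied to fatty liver, was higher in H1975 by 1.09 at 6 h (2.13-fold, adjusted p = 4.73e-04) and by 0.79 at 24 h (adjusted p = 0.00672), the second below the fold limit. Its 6 h means were -2.44 ± 0.19 in A549 and -1.35 ± 0.48 in H1975, the shared date sets gave 0.57 and 1.47, and the call was lost without H1975 PBS replicate 2 (0.99) or 3 (0.92). PNPLA2 was lower in H1975 on both probes, with differences of -0.47 and -0.75 at 6 h (adjusted p = 0.00452 and 2.02e-04) and of -0.33 and -0.63 at 24 h (adjusted p = 0.0374 and 0.00108), none reaching 2-fold. For the brighter PNPLA2 probe at 24 h the adjusted p was 0.0627 with the date set as a block and 0.0786 without the replicate 3 pair. LIPE differed by -0.70 at 6 h (adjusted p = 0.0303) and by -0.37 at 24 h (adjusted p = 0.242), where the A549 replicate 3 array at -0.51 stood below the other 2. Without the replicate 3 pair the 24 h difference was -0.81 (adjusted p = 0.00123). With the date set as a block the 6 h LIPE difference was -0.59 (adjusted p = 0.0754). The 24 h difference was 0.69 in the date set of that array and -0.87 in the other shared one. HILPDA differed by -0.70 (adjusted p = 0.00302) and -0.68 (adjusted p = 0.00346), also under the fold limit. The 2 MGLL probes lay between -0.15 and 0.35 with adjusted p from 0.124 to 0.899, and without the replicate 3 pair at 24 h they were at 0.28 and 0.13.

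With time in PBS, from 6 h to 24 h, 0 of 14 probes passed in A549, where 0.109% of all probes did, and 0 in H1975, where 0.315% did. In limma 1 member probe in A549 and 0 in H1975 had an unadjusted p under 0.05. That probe was the dimmer one of PLIN2, at -4.51, -4.37 and -4.64 at 6 h and -5.31, -5.51 and -5.38 at 24 h, a difference of -0.89 (adjusted p = 0.292). The brighter PLIN2 probe gave 0.25 in the opposite direction (adjusted p = 0.743), and 0.09 without the replicate 3 pair at 24 h. Differences between drug responses, by line or by time, passed for 0 member probes, beside 0.0336% and 0.193% of all probes between lines at 6 h and 24 h and 0.0294% and 0.0042% between times in A549 and H1975. For the 13 probes other than DGAT2 the unadjusted p in limma was under 0.05 for 0, 2, 0 and 0 of them, the 2 being LIPE and the dimmer PNPLA2 probe given above. Without the A549 replicate 3 pair these 2 were not among them, and the 2 with an unadjusted p under 0.05 at 24 h were AGPAT2 (-0.42, adjusted p = 0.74) and the MGLL brighter probe (-0.59, adjusted p = 0.642).

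The wider pathway was read from 7 lists with 70 gene names, of which 68 were on the array and 56 had a tested probe, each gene by its brightest probe. Under Pirfenidone 0 of the 56 passed in A549 after 6 h and 1 after 24 h, beside 0.192% and 0.0164% of all genes. In H1975 the counts were 0 and 2, beside 0.532% and 1.92%. Their median changes in this order were 0.01, 0.01, 0.01 and 0.02, and those of all genes -0.01, -0.02, 0.05 and 0.03. The gene called in A549 at 24 h was PNPLA5, which was well above background on 0 of the A549 arrays compared and was tested through an H1975 group, so the call is on background signal. Of the 53 list genes well above background on all 3 arrays of a group in that comparison 0 passed. The PNPLA5 call was lost without A549 PBS replicate 2 (adjusted p = 0.0502).

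The 2 genes called in H1975 at 24 h were PLIN4, a perilipin of nascent droplets, and PPARA, the nuclear receptor that turns on genes of fatty acid oxidation. PLIN4 read -2.22, -2.08 and -2.95 with PBS and -0.43, -0.24 and -0.98 with Pirfenidone. It rose by 1.87 (SE 0.39, adjusted p = 0.0103). At 6 h it read -4.07, -3.39 and -3.40 with PBS and -2.07, -1.85 and -2.62 with Pirfenidone, again without overlap, a difference of 1.44 that did not pass (adjusted p = 0.0782). It passed with the slide block (adjusted p = 2.48e-04) and not with the date set as a block (adjusted p = 0.0511). It also passed with the replicate block (adjusted p = 0.00458), but replicate numbers do not pair the arrays of this comparison. Deviations of same-numbered arrays from their group means correlated there at -0.52, 0.52 and -0.77. In A549 the PLIN4 differences were 0.38 at 6 h and -0.10 at 24 h (adjusted p = 1 for both). The H1975 call was lost when its PBS replicate 3 at 24 h was left out (1.60, adjusted p = 0.0521).

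**Figure D5:**
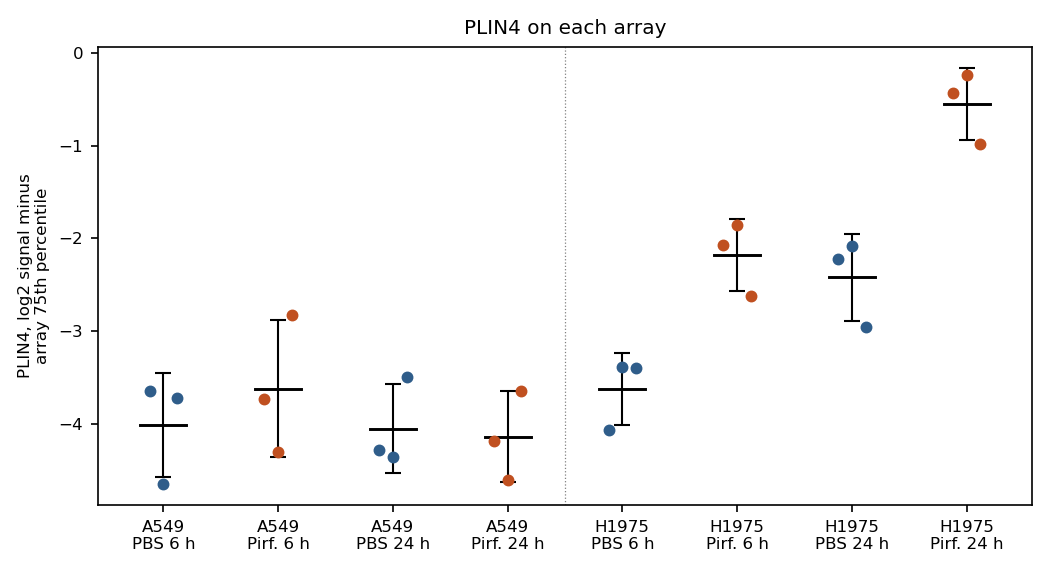
PLIN4 signal (log2 intensity relative to the array's 75th percentile, vertical axis) on each of the 24 arrays. Blue points are PBS and orange points Pirfenidone arrays, replicates 1 to 3 from left to right, with black bars for the mean ± SD (n = 3). In H1975 all Pirfenidone arrays lie above the PBS arrays of the same time, at -2.07, -1.85 and -2.62 at 6 h and -0.43, -0.24 and -0.98 at 24 h.

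PPARA read -2.77, -2.66 and -2.73 with PBS and -1.90, -1.67 and -1.14 with Pirfenidone in H1975 at 24 h. It rose by 1.15 (SE 0.33, adjusted p = 0.0424), and its other probe gave 0.28 (adjusted p = 0.649). The call was lost in 5 of the 6 fits that left out 1 of these arrays and stood only without Pirfenidone replicate 1 (change 0.94 to 1.32, adjusted p 0.0484 to 0.212). It was also lost with the replicate block (adjusted p = 0.0515), the slide block (0.0849) and normexp (0.1), and stood with the date set as a block (0.0409). Among the PPAR target genes 0 of 7 passed. ANGPTL4, a secreted inhibitor of lipoprotein lipase, had the largest difference of these at 1.45 (adjusted p = 0.0617), followed by PDK4 at -0.51 (adjusted p = 0.627).

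In the list of the glycerol phosphate pathway 0 of 10 passed under Pirfenidone in any of the 4 comparisons. In A549 at 6 h AGPAT5, another acyltransferase of phosphatidic acid synthesis, and LPIN1, which makes diglyceride from it, met the p limit, which 0.34% of all tested probes met, and not the fold limit. AGPAT5 read -0.77, -0.61 and -0.80 with PBS and -1.28, -1.43 and -1.80 with Pirfenidone, a difference of -0.78 (adjusted p = 0.0462). LPIN1 read 0.01, 0.01 and -0.06 against 0.51, 0.53 and 0.78, a difference of 0.62 (adjusted p = 0.0206), while its other probes gave 0.37 and 0.34 (adjusted p = 1 for both). In fits without 1 array, both genes met the p limit only without Pirfenidone replicate 1 (adjusted p = 0.0358 and 0.0323 in limma). The other such fits gave 0.122 to 0.343 for AGPAT5 and 0.0598 to 0.185 for LPIN1. Neither gene met the p limit with normexp or with only the arrays compared (0.262 and 0.192). Both met it with the date set as a block (0.00872 and 0.0191). At 24 h the largest in A549 were AGPAT4 at -0.16 and LPIN1 at 0.09 (adjusted p = 1 for both). In H1975 they were AGPAT5 at -0.46 and GPAM at -0.36 at 6 h (adjusted p = 0.242 and 0.484), and LPIN2 at 0.55 and AGPAT3 at 0.38 at 24 h (adjusted p = 0.127 and 0.286).

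The other lists had these largest differences under Pirfenidone where none of their genes passed. Among fatty acid activating enzymes they were ACSL5 (-0.56) and ACSL3 (0.18) in A549 at 6 h, ACSL1 (0.10) and ACSL4 (-0.08) at 24 h, ACSL1 (-0.26) and ACSL3 (0.19) in H1975 at 6 h and ACSL5 (-0.25) and ACSL3 (0.19) at 24 h, with adjusted p of 0.48 or more. In the monoglyceride and sterol ester list the values were -0.50 for SOAT2 in A549 at 6 h, 0.32 for MOGAT3 in A549 at 24 h and -0.50 for AWAT2 in H1975 at 6 h. MOGAT1 had larger changes in the same order (0.81, 1.82 and 1.32), which did not pass. These are not measured folds, since detection of MOGAT1 was partial or absent. MOGAT1 was above background on 0 arrays of A549 at 6 h and on 0 of the PBS arrays of H1975 at 6 h. In A549 at 24 h it was above background on 1 of the 3 PBS arrays and on all 3 Pirfenidone arrays. SOAT2, a cholesterol esterifying enzyme, was at -0.76 (adjusted p = 0.0743) and AWAT2 at -0.64 (adjusted p = 0.275) in H1975 at 24 h. Among coat and assembly genes PLIN4 and FITM2 (-0.38) led in A549 at 6 h, CIDEB (0.34) and CIDEC (0.15) at 24 h, and PLIN4 and HSD17B11 (0.25) in H1975 at 6 h.

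Among regulators of lipolysis the largest were CES1 (-0.17) and ABHD12 (-0.14) in A549 at 6 h, G0S2 (-0.46), a PNPLA2 inhibitor, and ABHD6 (0.43) in H1975 at 6 h, and CES1 (-1.18, adjusted p = 0.294) and PNPLA5 (-0.57) in H1975 at 24 h. Among transcription factors they were MLXIPL (0.42) and PPARD (0.32) in A549 at 6 h, PPARA (0.22) and MLXIPL (0.21) at 24 h, and EPAS1 (0.57, adjusted p = 0.239) and PPARD (0.53, adjusted p = 0.386) in H1975 at 6 h. PPAR targets were led by ANGPTL4 (0.43) and PDK4 (-0.25) in A549 at 6 h and by PDK4 (0.44) and ANGPTL4 (-0.23) in H1975 at 6 h, and ANGPTL4 was at -0.13 in A549 at 24 h. None of the genes in this paragraph met the p limit in the comparison given. Without the replicate 3 pair several A549 values at 24 h were larger, CIDEC at 1.02 (adjusted p = 0.16), PPARA at 0.96 (0.276), SOAT2 at -0.81 (0.0554), ACSL5 at -0.74 (0.7) and ANGPTL4 at 0.72 (0.757), and 0 of the 53 measured genes passed. The largest of the 53 was MOGAT1 at 3.09 (adjusted p = 0.0575 in limma), against 1.82 with the pair. With the pair included it was above background on 1 of the 3 PBS arrays. Not all PBS arrays left without the pair were therefore above background, and 3.09 is not a measured fold.

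Between the lines 23 of the 56 genes passed in PBS at 6 h, 12 higher in H1975 and 11 lower, beside 32.3% of all genes, where 21 of the 23 were above background on all 3 arrays of a line, and 22 at 24 h, 10 higher and 12 lower, beside 32.8%, each of the 22 so measured. Fatty acid activating enzymes passed in 3 of 4 cases at both times: ACSL5 was higher by 6.32 at 6 h, ACSL4 by 2.49, and ACSL3 was lower (-1.20). At 24 h, ACSL5 was above background on 2 of the 3 A549 arrays. In the glycerol phosphate list 3 of 10 passed at both times, with AGPAT4 higher by 2.21 and 1.83, AGPAT3 lower (-1.26 and -1.23) and AGPAT5 lower (-1.99 and -2.11). In the monoglyceride and sterol ester list 3 of 5 passed at 6 h, SOAT1 at 1.19, SOAT2 at -1.91 and AWAT2, and AWAT2 alone at 24 h. AWAT2, an acyltransferase of the DGAT2 family that makes wax esters, was not well above background in A549 and was at least 2.49-fold higher in H1975 at 6 h and at least 2.94-fold higher at 24 h. Such a bound sets the H1975 mean against the higher of the A549 signal and the lowest signal well above background on each array.

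Regulators of lipolysis passed for 6 of 9 genes at 6 h and 4 of 9 at 24 h. ABHD5, the activator of PNPLA2, was higher in H1975 by 1.63 and 1.66 (adjusted p = 2.70e-09 and 2.17e-09), and so was the PNPLA2 inhibitor G0S2, by 5.81 and 5.19 (adjusted p = 2.21e-10 and 1.19e-09). G0S2 read -3.30, -2.16 and -2.34 in A549 and 3.94, 2.87 and 2.82 in H1975 at 6 h, far apart. The carboxylesterase CES1 was lower (-5.76 and -5.26), as was ABHD12 (-1.36 and -1.03), and LIPA was higher by 1.11 at 6 h. The count at 6 h includes PNPLA5, above background on 1 of the 3 H1975 arrays and 0 of the A549 arrays, so no fold is given and 5 of the 6 calls are on measured signal.

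In the coat and assembly list the fit called 1 of 10 genes at 6 h, PLIN5, which was above background on 0 arrays of either line, so 0 measured genes passed there, and 3 passed at 24 h. These were PLIN4 at 1.63, PLIN5, at least 1.08-fold higher in H1975, and CIDEC at -1.21. Without the A549 replicate 3 pair CIDEC was at -0.61 and no longer passed, while SOAT2 (-1.31) and LIPA (1.12) passed at 24 h, for 23 of 56 in all. Transcription factors passed for 5 of 11 at both times. PPARD was higher by 2.58 and 2.57 and PPARA by 1.23 and 1.04, while CEBPA (-3.12 and -2.85), SREBF1, a driver of fatty acid synthesis (-2.04 and -1.52), and EPAS1 (-1.41 and -1.24) were lower. Of the PPAR targets, PDK4 was lower in H1975 at both times (-3.77 and -3.47) and ANGPTL4 at 24 h (-1.58).

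The genes most like DGAT2 over the 24 arrays, after subtraction of each line's mean, were TGOLN2 (r = 0.92), HNRNPA0 (0.85), AGPAT5 (0.84), ZC3HAV1 (0.83) and RBM12 (0.82), out of 14601 genes searched. The arrays are shared by all genes, and the A549 fall at 6 h is part of the pattern, so these correlations are descriptions. Their A549 changes at 6 h were -0.84, -1.06, -0.78, -1.79 and -1.50 in the same order. In A549 at 24 h all 5 lay between -0.18 and -0.02, with the opposed replicate 3 pair included. Without that pair AGPAT5 was at -0.03, and no such value is given for the other 4. In H1975 RBM12 was at -1.29 at 6 h and the other 4 lay between -0.46 and -0.09. None of the other 9 members had a probe that followed DGAT2 closely, with r from -0.28 for the PLIN2 brighter probe to 0.31 for LIPE.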

How the data were processed

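RNA of 24 samples was hybridized to 1 array each. The deposited scanner files hold spot intensity values that the authors made with Feature Extraction version 11.5.1.1, with background removed and no normalization between arrays. A further table from the authors gives log2 values centred per probe (column medians -0.162 to 0.155), and its scaling per array is unknown. It served as an alternative. The main values were processed signals on the log2 scale, set relative to the 75th percentile of 43118 spots per array, without outlier spots, averaged per probe. A total of 23827 of 34127 probes were tested, those detected well above background throughout any 1 group. All 8 groups entered 1 linear model (limma version 3.58.1, R version 4.3.3, 16 residual degrees of freedom, two-sided, Benjamini-Hochberg over all tested probes). The study's Westfall-Young adjustment cannot reach 0.05 with 3 arrays against 3. The members, lists and tests were chosen with earlier results of these data known. Every member is named. List genes are named where they passed, and otherwise the 2 with the largest change. Values of 1 list gene are not reported here, though the counts over lists include it. The steps were tested on simulated data. Alternatives varied background correction, scaling, filters, blocks and adjustment, and left out each array in turn. The number of arrays limits the precision.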

Additional observations from a re-analysis of the deposited data

Results flagged for a closer look

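The brighter PNPLA2 probe at 6 h had drug differences of opposite sign in the 2 lines. Within date sets they were -0.10, -0.06 and -0.04 in A549 and 0.04, 0.52 and 0.25 in H1975, so that every A549 pair was below 0 and every H1975 pair above it, and the mean difference between the lines was 0.34. In the limma fit this difference was 0.33 (95% interval -0.06 to 0.72, adjusted p = 1) and did not pass. The dimmer PNPLA2 probe did not show the pattern. Within date sets it gave 0.07, -0.01 and 0.04 in A549 and 0.10, 0.26 and 0.17 in H1975.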

How the results depend on the processing

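No value that passed changed sign under any alternative run. The DGAT2 difference in H1975 at 24 h, -0.07 and not called, was above 0 without PBS replicate 1 (0.09), PBS replicate 2 (0.06) or Pirfenidone replicate 3 (0.30). Beside the fits without 1 array, 229 values of results that answer a comparison kept their side of the limits and 20 moved. With normexp background correction the DGAT2 difference in A549 at 6 h was -1.46. Without a fold limit the member counts were 1 in H1975 at 24 h, 12 between lines at 6 h and 11 at 24 h. Without 1 array, the member count was 4 to 8 between lines at 6 h, 5 to 6 between lines at 24 h and 0 to 0 elsewhere. In these fits DGAT2 ran from -2.57 to -2.15 in A549 at 6 h and from -0.85 to -0.13 at 24 h, and from -0.68 to -0.17 and from -0.37 to 0.30 in H1975 at the early and late time.

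Holm adjustment lost the line differences of DGAT2 at both times, PNPLA3 at 6 h and the dimmer PLIN2 probe at 24 h. Normexp lost PNPLA3 at 6 h (0.97) and quantile normalization AGPAT2 at 6 h (-0.92). LIPE in H1975 at 24 h missed an adjusted p of 0.05 without a filter on dim probes (0.0635), with only the arrays compared (0.0583) and with a random slide block (0.0562), a setting added after seeing the data.

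The methods' t-test below was paired by date set and not moderated, unlike the study's array test. All list counts under other settings but the mean of all probes were also added after seeing the data. In A549 at 6 h the list count was 2 without a fold limit. At 24 h in A549 it was 0 with normexp, with only probes detected on all arrays, with only the arrays compared and in the methods' t-test after Benjamini-Hochberg. In H1975 at 6 h it was 1 with normexp, the replicate block, the slide block and the methods' t-test unadjusted. In H1975 after 24 h it was 1 with the mean of all probes, with normexp and without a filter, 4 with the date set as a block, and 0 with only the arrays compared, Holm adjustment or the methods' t-test after Benjamini-Hochberg. Without 1 array the list counts ran from 0 to 0 in A549 at 6 h, 0 to 1 at 24 h, 0 to 0 in H1975 at 6 h and 0 to 2 at 24 h. The causes were not tested.

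Replicate numbers do not pair all samples: deviations of same-numbered arrays from their group means correlated at 0.84, 0.79 and 0.78 in A549 at 6 h but at 0.46, 0.04 and -0.25 at 24 h, and at -0.52, 0.52 and -0.77 in H1975 at 6 h, against 0.60, 0.70 and 0.76 at 24 h. Arrays of 1 date set, which are the same pairs except in H1975 at 6 h, correlated there at 0.61, 0.82 and 0.88. With the date set as a block no member count changed. With the replicate block the DGAT2 differences were -2.37, -0.41, -0.45 and -0.07, LIPE in H1975 at 24 h was -0.94 (adjusted p = 0.0422), and member counts in drug and time comparisons did not change. Line differences could not be fitted with that block, since numbers and slides lie within a line. Dim probes such as DGAT2 in treated A549 cells, near background, are measured less precisely.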
